A study of Homo sapiens with 12 samples.

Results

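The heat shock chaperones described here are 10 genes, chosen by name: HSPA1A, HSPA1B, HSPA8, HSP90AA1, HSP90AB1, HSPB1, DNAJB1, HSPH1, HSPD1 and HSPE1. Each was matched by its symbol to 1 of the 60106 genes in every count table, and all 10 passed the filter on low counts in both cell lines. The tables came from 12 RNA sequencing libraries of PC3 and VCaP, established human prostate cancer cell lines grown from metastases to bone. PC3 was transfected with 20 nM of a non-targeting siRNA (NSI, 3 libraries) or of an siRNA against FOXA1 (siFOXA1, 3 libraries), in RPMI medium with serum. VCaP received 40 nM of NSI (3 libraries) or siFOXA1 (3 libraries), in DMEM with serum. All groups shared the transfection reagent RNAiMax, and RNA was taken after 72 hours. No group was heated or given another stress, as far as the labels say.

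Molecular chaperones bind unfolded or partly folded proteins and help them reach or regain their folded state. Heat shock factors, chiefly HSF1, raise many of these genes when proteins misfold, by binding heat shock elements, short inverted repeats of the letters GAA in the promoter. HSP70 proteins bind exposed stretches of a client with the help of a J-domain partner and a nucleotide exchange factor. HSP90 completes the folding of kinases and steroid receptors. Small heat shock proteins hold unfolded clients without using ATP, and the HSP60 chaperonin with its lid folds proteins inside mitochondria.

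Of the 10 chaperones, 1 changed in PC3 and 5 changed in VCaP when FOXA1 was lowered, and none of the 10 passed the test in both lines. With the replicate number as a block, 5 changed in PC3, and HSPB1 then passed in both lines, lower in PC3 and higher in VCaP. The share of all genes passing in both lines was not counted, so how the chaperones compare in this is not known. In PC3, HSPD1, the subunit of the mitochondrial HSP60 chaperonin, fell to 67.4% of its NSI level. In VCaP, the inducible HSP70 genes HSPA1A and HSPA1B rose to 130.6% and 131% of NSI, and the small heat shock protein gene HSPB1 rose to 326.5% from 9 to 10 counts a library. HSP90AB1, the constitutive cytosolic HSP90, fell to 76.4% there, and HSPH1, a nucleotide exchange factor of the HSP110 class, fell to 84.9%. Levels are CPM, counts scaled to a common library size. A change means here an adjusted p under 0.05 in edgeR's quasi-likelihood test, with Benjamini-Hochberg adjustment over all genes tested in the line.

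With all libraries, the filter on low counts and no replicate block, these counts lay near or below the shares over all genes tested. The count of lower chaperones in PC3 lay above the share with the block and in some other settings. Among these were the fit without replicate 2 of both PC3 groups and the fit without the filter. In the latter 3 of 10 were lower, against 3977 of 48549 genes. In PC3, 0 chaperones were higher and 1 of 10 was lower, where 27.7% of the 26478 genes tested were called and 13.9% were called lower. At an unadjusted p under 0.05 the counts were 0 higher and 3 lower, where 10795 of the 26478 genes passed in either direction. DESeq2 called 0 higher and 2 lower, where it called 8391 of 26467 genes, 4186 of them lower. Blocking on the replicate number gave 5 of 10 lower and 0 higher, against 42.8% of all genes called and 23.1% called lower. That the numbers pair the PC3 libraries was judged from these same data. The added calls were HSPB1, HSPE1, HSPA8 and HSP90AA1. Without replicate 2 of both PC3 groups, whose short genes read high, 3 of 10 were lower. Of all 26850 genes tested in that setting, 10246 were called, 4988 of them lower. In VCaP, 3 of 10 were higher and 2 lower, where 45.8% of the 22939 genes tested were called, 22.5% higher and 23.3% lower. The median log2 fold change of the 10 was −0.16 in PC3, against −0.01 over all genes, and −0.08 in VCaP, against 0.02.

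**Figure D1:**
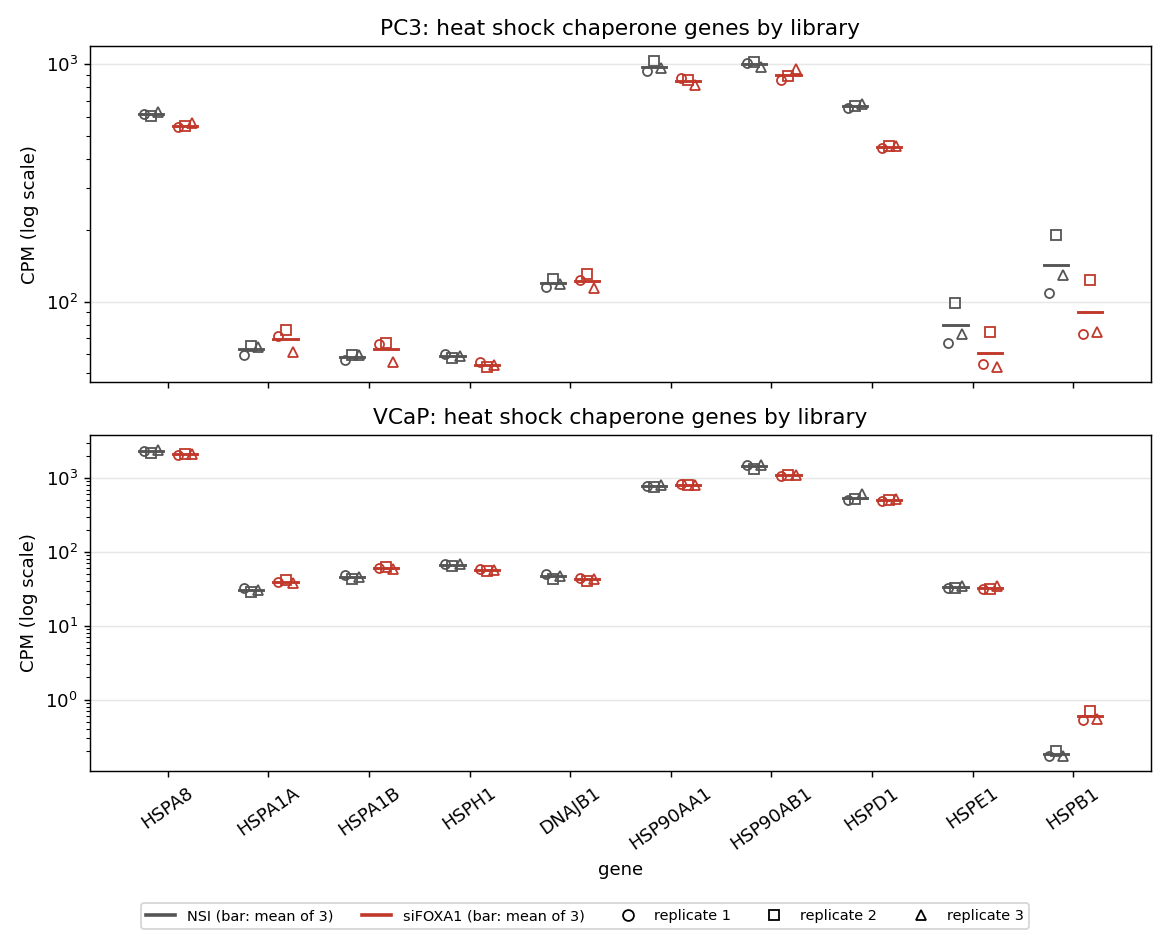
Level of each of the 10 chaperones in every library, in CPM (log axis), in PC3 and VCaP. Symbols mark replicates 1, 2 and 3, and bars mark the mean of 3 libraries. HSPB1 lies between 72.8 and 189.8 CPM in PC3 and under 1 CPM in VCaP, and its replicate 2 is the highest of each group.

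Totals ran from 123140099 to 188226483 counts in the PC3 libraries (polyadenylated RNA) and from 48187047 to 59839211 in the VCaP libraries (total RNA), so counting error was small for every chaperone except HSPB1 in VCaP. The line is confounded with the siRNA dose, the extent of the FOXA1 fall, the medium, the library kit, the depth and the strand setting of the counting. These cannot be told apart from it in any difference between the lines, or between their counts of changed genes. FOXA1, the siRNA target, fell from 271 ± 30.03 to 169 ± 11.4 CPM (SD, n = 3) in PC3, to 62.3% of NSI (edgeR adjusted p 0.0022), and from 489.7 ± 47.0 to 80.6 ± 6.19 CPM in VCaP, to 16.5% (edgeR adjusted p 1.8e-07). Of the genes that mark VCaP, TMPRSS2 averaged 117 ± 5.98 CPM (SD, n = 3) in VCaP NSI and 0.358 ± 0.0536 CPM in PC3 NSI, and ERG averaged 238 ± 15.9 and 0.0297 ± 0.0239 CPM. The 4 epithelial markers were above 0 in both lines. Of 8 markers of fibroblasts, endothelium and leukocytes, 7 were in the tables and none of these was at 0 throughout a line. Their sum moved with the siRNA, from 30.7 to 32.9 CPM in NSI up to 54.0 to 60.8 in siFOXA1 in PC3, and from 13.4 to 20.4 CPM down to 2.65 to 5.49 in VCaP. Their part in the results was not tested. In RNA from whole cultures, fewer cells of a type and less RNA per cell cannot be told apart. Nothing in the labels says that replicates were separate cultures, so p-values measure the spread between these libraries, which may be technical.

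Promoter sequence is shown before the values because 8 of the 10 genes hold a heat shock element pattern near the start. In the 250 bases before the transcription start of 19874 protein-coding genes, the pattern GAANNTTCNNGAA, made of 3 alternating units, was found on either strand in 0.322% of genes (64 of 19874) and in 4 of the 10 chaperones. The 4 were HSPA8, HSPH1, HSP90AA1 and HSPD1. The shorter pattern GAANNTTC was found in 4.66% of all genes and in 8 of the 10, and TTCNNGAA in 5.35% and in 4 of the 10. Each match to the long pattern holds matches to both short ones, so these counts overlap. HSP90AB1 and HSPE1 held none of the patterns in this window. Starts were those of the Ensembl canonical transcripts in the GENCODE v44lift37 annotation on GRCh37. The stretches below hold the matches nearest to the start, 5′ to 3′ on the gene's strand, with the matched letters in capitals.
HSPA8 (chr11:122932875-122932904, minus strand): gccccTTCTGGAAGGTTCtaagatagggta
HSPH1 (chr13:31736071-31736116, minus strand): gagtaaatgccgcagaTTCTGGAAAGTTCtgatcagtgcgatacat
HSP90AA1 (chr14:102553441-102553470, minus strand): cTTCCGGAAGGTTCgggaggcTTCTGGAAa
HSPD1 (chr2:198364785-198364814, minus strand): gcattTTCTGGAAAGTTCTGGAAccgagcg
DNAJB1 (chr19:14629245-14629289, minus strand): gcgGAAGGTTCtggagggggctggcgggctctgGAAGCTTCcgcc
HSPB1 (chr7:75931797-75931826, plus strand): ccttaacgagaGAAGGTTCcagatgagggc
HSPA1A (chr6:31783152-31783239, plus strand): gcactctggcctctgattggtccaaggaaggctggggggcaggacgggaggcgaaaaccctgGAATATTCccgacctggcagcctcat
HSPA1B (chr6:31795348-31795435, plus strand): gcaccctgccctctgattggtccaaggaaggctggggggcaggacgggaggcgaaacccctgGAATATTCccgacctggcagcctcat

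The HSPD1 stretch holds a pair of overlapping matches. The HSPA1A and HSPA1B stretches differ at 3 of 88 bases. The sites of HSPA8, HSPH1, HSP90AA1, HSPD1 and DNAJB1 lie inside the gene spans of the count tables, where longer transcripts start further upstream, and those of HSPB1, HSPA1A and HSPA1B lie before them. The forkhead pattern TGTTTAC, the kind of motif that FOXA1 binds, was found on either strand in 2.06% of the 19874 windows and in 0 of the 10 chaperones, which says only that these letters are not in these windows. A match is a description of sequence and not evidence of binding.

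**Figure D2:**
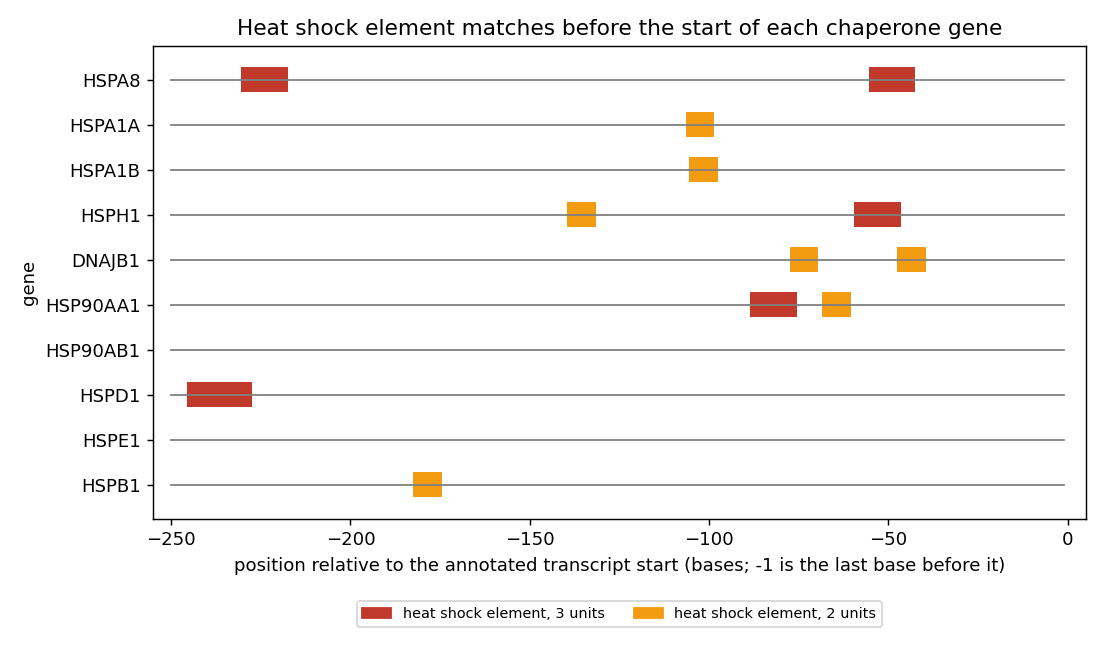
Matches to the heat shock element patterns in the 250 bases before the start of each of the 10 chaperones, plotted by distance from the start in bases. Red marks the pattern of 3 units and orange the patterns of 2 units. Rows for HSP90AB1 and HSPE1 are empty.

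The genes differed widely in level, and the order differed between the lines. Levels between genes are compared as CPM per kilobase of annotated exon. In PC3 treated with NSI the highest was HSP90AB1 at 336 ± 7.16 CPM per kilobase (SD, n = 3), followed by HSPD1 (259 ± 5.46), HSP90AA1 (242 ± 11.5) and HSPA8 (228 ± 4.69). The ranges of mean ± SD overlapped for HSPD1 and HSP90AA1, and for HSP90AA1 and HSPA8. Below them came HSPB1 (135 ± 39.8), HSPE1 (77.2 ± 16.4), DNAJB1 (48.8 ± 1.91), HSPA1A (25.4 ± 1.16), HSPA1B (23.3 ± 0.725) and HSPH1 (10.4 ± 0.213). In VCaP treated with NSI, HSPA8 led at 852 ± 44.7 CPM per kilobase, ahead of HSP90AB1 (484 ± 33.7), HSPD1 (212 ± 21.4) and HSP90AA1 (195 ± 3.84), the last pair with overlapping ranges. There followed HSPE1 (32.4 ± 1.41), DNAJB1 (19.1 ± 1.33), HSPA1B (18.2 ± 1.11), HSPA1A (12.2 ± 0.785), HSPH1 (11.8 ± 0.394) and, last by a wide gap, HSPB1 (0.172 ± 0.0140). The ranges of DNAJB1 and HSPA1B overlapped there, as did those of HSPA1A and HSPH1. Under siFOXA1 the PC3 order changed in 1 place, with HSPD1 at 174 ± 1.62 CPM per kilobase now below HSP90AA1 (210 ± 6.75) and HSPA8 (204 ± 3.88). There the ranges overlapped for HSP90AA1 and HSPA8, HSPB1 and HSPE1, HSPE1 and DNAJB1, and HSPA1A and HSPA1B. In VCaP siFOXA1, HSPA1B (23.9 ± 0.995) stood above DNAJB1 (17.5 ± 0.657), and HSP90AA1 (200 ± 3.34) above HSPD1 (195 ± 6.70), the latter pair with overlapping ranges.

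Summed over the 10 genes, the chaperones took 3779 ± 114 CPM in PC3 NSI and 3204 ± 53.4 CPM in PC3 siFOXA1 (SD, n = 3 each). The siFOXA1 sums of 3158, 3263 and 3192 CPM all lay below the NSI sums of 3683, 3905 and 3748. In VCaP the sum went from 5298 ± 275 to 4747 ± 60.3 CPM, with 5338, 5005 and 5550 in NSI and 4684, 4753 and 4804 in siFOXA1, again without overlap. These sums are carried by HSP90AA1, HSP90AB1, HSPA8 and HSPD1, and say little of the inducible genes.

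The inducible HSP70 genes HSPA1A (ENSG00000204389.9_3, chromosome 6, 31783241 to 31785723, plus strand) and HSPA1B (ENSG00000204388.6_3, chromosome 6, 31795512 to 31798032, plus strand) encode nearly the same protein and are a standard readout of the heat shock response. In VCaP, HSPA1A read 32.3, 28.4 and 30.3 CPM with NSI and 39.5, 41.6 and 37.8 CPM with siFOXA1. HSPA1B read 48.5, 43.0 and 46.0 CPM with NSI and 59.7, 62.9 and 58.0 CPM with siFOXA1. For both genes all 3 siFOXA1 libraries lay above all 3 NSI libraries. HSPA1A rose by a log2 fold change of 0.39 (SE 0.07, edgeR adjusted p 0.0012) and HSPA1B by 0.39 (SE 0.06, edgeR adjusted p 0.00082). The exact two-sided permutation test gave p 0.1 for each, the smallest that 3 against 3 libraries allow. In PC3 the same genes were not called. HSPA1A read 59.8, 65.2 and 64.3 CPM with NSI and 71.3, 75.9 and 61.1 CPM with siFOXA1, a log2 fold change of 0.14 (SE 0.10, edgeR adjusted p 0.34). HSPA1B had a value of 0.10 (SE 0.10, edgeR adjusted p 0.45), from 58.7 ± 1.83 to 63.0 ± 6.31 CPM (SD, n = 3). Replicate 3 of siFOXA1 was the lowest of its group for both genes and lay inside or below the NSI range.

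The split between the HSPA1A and HSPA1B counts is uncertain. Their coding sequences of 1926 bases differ at 4 positions, the longest identical run is 1709 bases, and 72.4% of 100-base windows of HSPA1A occur also in HSPA1B, while the authors divided fragments that map to several places. Their sum avoids that split. It went from 122 ± 4.69 to 132 ± 13.8 CPM in PC3, with a log2 fold change of 0.12 (edgeR adjusted p 0.39), and from 76.2 ± 4.74 to 99.8 ± 4.38 CPM in VCaP, with a log2 fold change of 0.39 (edgeR adjusted p 0.0012). The ratio of HSPA1B to HSPA1A, per kilobase, was 0.916 ± 0.0151 in PC3 NSI and 0.894 ± 0.0218 in siFOXA1, and 1.489 ± 0.00859 and 1.497 ± 0.0109 in VCaP. The ratio thus differed between the lines by far more than between siRNAs or replicates.

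HSPA8 (ENSG00000109971.13_5, chromosome 11, 122928197 to 122933043, minus strand) is the constitutive HSP70, expressed without stress and used in folding new proteins. It read 617, 603 and 628 CPM in the PC3 NSI libraries and 542, 546 and 562 CPM with siFOXA1. The groups did not overlap, yet the log2 fold change was small at −0.16 (SE 0.08, edgeR adjusted p 0.14, or 0.0486 with the replicate block). In VCaP it read 2333, 2166 and 2401 CPM with NSI and 2065, 2109 and 2138 CPM with siFOXA1, a log2 fold change of −0.13 (SE 0.08, edgeR adjusted p 0.21). The difference between the lines was 0.02 (SE 0.13, edgeR adjusted p 0.98). HSPA8 therefore passed the test in neither line without the block, although the siFOXA1 libraries were lower in both.

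The HSP70 partners DNAJB1 and HSPH1 set the cycle of client binding and release. DNAJB1 (ENSG00000132002.7_4, chromosome 19, 14625582 to 14640120, minus strand), the stress-inducible J-domain protein, was called in neither line. Its mean went from 119 ± 4.66 to 122 ± 7.95 CPM (SD, n = 3) in PC3 and from 46.8 ± 3.27 to 42.7 ± 1.61 CPM in VCaP, with edgeR adjusted p 0.78 and 0.13. HSPH1 (ENSG00000120694.19_3, chromosome 13, 31709111 to 31736525, minus strand) read 68.7, 64.4 and 67.6 CPM in the VCaP NSI libraries and 58.5, 55.2 and 56.8 CPM with siFOXA1. All siFOXA1 libraries were lower, and HSPH1 fell by 0.24 on the log2 scale (SE 0.06, edgeR adjusted p 0.0068). In PC3 it read 60.1, 57.8 and 59.3 CPM with NSI and 55.7, 53.0 and 54.2 CPM with siFOXA1, without overlap, with a log2 fold change of −0.12 (SE 0.08, edgeR adjusted p 0.27). In VCaP, then, HSPA1A and HSPA1B rose while HSPH1 fell, and DNAJB1 gave a negative value that did not pass.

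HSP90 is made from an inducible gene, HSP90AA1 (ENSG00000080824.18_3, chromosome 14, 102547075 to 102606023, minus strand), and a constitutive one, HSP90AB1 (ENSG00000096384.19_2, chromosome 6, 44213903 to 44221625, plus strand). HSP90AB1 read 1482, 1329 and 1519 CPM in the VCaP NSI libraries and 1077, 1115 and 1116 CPM with siFOXA1. The siFOXA1 libraries lay together, well below the lowest NSI library, and HSP90AB1 fell by 0.39 on the log2 scale (SE 0.08, edgeR adjusted p 0.0032). HSP90AA1 read 791, 769 and 799 CPM in the VCaP NSI libraries and 823, 798 and 801 CPM with siFOXA1, groups that overlapped (log2 fold change 0.04, SE 0.07, edgeR adjusted p 0.67). The ratio of HSP90AB1 to HSP90AA1 per kilobase was 2.48 ± 0.125 in VCaP NSI and 1.85 ± 0.0673 in siFOXA1 (SD, n = 3), without overlap between the groups.

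In PC3 the 2 HSP90 genes gave similar small values. HSP90AA1 read 938, 1027 and 961 CPM with NSI and 870, 853 and 817 CPM with siFOXA1, 86.8% of NSI, a log2 fold change of −0.20 (SE 0.08, edgeR adjusted p 0.094, or 0.0276 with the replicate block). HSP90AB1 read 1009, 1016 and 976 CPM with NSI and 859, 890.4 and 949.5 CPM with siFOXA1, a log2 fold change of −0.15 (SE 0.08, edgeR adjusted p 0.19). Neither gene overlapped between the groups, and the ratio of HSP90AB1 to HSP90AA1 per kilobase was 1.39 ± 0.0596 in NSI and 1.44 ± 0.121 in siFOXA1. The difference of effect between the lines did not pass for HSP90AB1 (−0.25, SE 0.13, edgeR adjusted p 0.20), but DESeq2 gave an adjusted p of 0.0265. For HSP90AA1 it was 0.23 (SE 0.12, edgeR adjusted p 0.20).

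HSPB1 (ENSG00000106211.8_2, chromosome 7, 75931861 to 75933612, plus strand), the small heat shock protein also known as HSP27, had the largest log2 fold change of the 10 in each line, with opposite signs. In VCaP 9, 10 and 10 counts were found with NSI and 26.5, 34.5 and 29 counts with siFOXA1, fractions arising where fragments were divided. As CPM this was 0.173, 0.199 and 0.174 in NSI and 0.536, 0.696 and 0.552 in siFOXA1. The groups did not overlap, and HSPB1 rose by a log2 fold change of 1.70 (SE 0.24, edgeR adjusted p 0.00036), but it remained the lowest of the 10 genes. In PC3 it read 108.5, 189.8 and 129.7 CPM with NSI and 72.8, 123 and 74.3 CPM with siFOXA1, 63.1% of NSI on average. Replicate 2 was the highest in both groups, so the groups overlapped although every siFOXA1 library was below the NSI library of the same number. The log2 fold change was −0.66 (SE 0.25, edgeR adjusted p 0.079), and with the replicate block it was −0.67 (adjusted p 8.0e-05). DESeq2 gave an adjusted p of 0.0274, and leaving out replicate 2 of both PC3 groups gave −0.65 (edgeR adjusted p 0.00040). The value moved with replicate 2, to −0.36 without replicate 2 of NSI alone (edgeR adjusted p 0.25) and to −0.96 without that of siFOXA1 alone (adjusted p 0.014). HSPB1 has 1060 bases of annotated exon, and in both PC3 groups replicate 2 read high for short genes, by a median of 0.171 on the log2 scale over genes of 1500 bases or shorter, against −0.120 and −0.0829 over genes of 4000 bases or longer. The part of this shift in the HSPB1 values was not tested. The effects of the lines differed by 2.36 (SE 0.52, edgeR adjusted p 0.0041).

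HSPD1 (ENSG00000144381.16_3, chromosome 2, 198351305 to 198364998, minus strand) and HSPE1 (ENSG00000115541.10_3, chromosome 2, 198364718 to 198368181, plus strand) encode the HSP60 ring and its HSP10 lid. They lie head to head, their canonical starts 539 bases apart, so that the HSPD1 stretch printed above lies between them. In PC3, HSPD1 read 652, 664 and 680 CPM with NSI and 443, 450.0 and 451 CPM with siFOXA1. The replicates of each group were close and the gap between the groups wide. HSPD1 fell by 0.57 on the log2 scale (SE 0.08, edgeR adjusted p 0.0011), and the call held in all 16 alternatives that were run. In VCaP it read 499.9, 529 and 606 CPM with NSI and 485, 498 and 519 CPM with siFOXA1, overlapping groups with a log2 fold change of −0.12 (SE 0.08, edgeR adjusted p 0.27). The difference between the lines was 0.43 (SE 0.13, edgeR adjusted p 0.025). It did not pass when any 1 of 9 of the 12 libraries was left out, with adjusted p from 0.058 to 0.105. The libraries whose removal kept it were PC3 NSI replicate 2, VCaP NSI replicate 3 and VCaP siFOXA1 replicate 1.

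HSPE1 in PC3 read 67.1, 98.7 and 72.8 CPM with NSI and 54.5, 74.7 and 53.3 CPM with siFOXA1. As for HSPB1, replicate 2 was highest in both groups, and HSPE1 is short, with 1030 bases of exon. Its log2 fold change was −0.39 (SE 0.18, edgeR adjusted p 0.13), or −0.38 with the replicate block (adjusted p 0.0011) and −0.33 without replicate 2 of both groups (adjusted p 0.0037). It was −0.16 without replicate 2 of NSI alone (edgeR adjusted p 0.46) and −0.56 without that of siFOXA1 alone (adjusted p 0.038). In VCaP it read 33.0, 32.1 and 34.9 CPM with NSI and 31.9, 31.5 and 34.1 CPM with siFOXA1, a log2 fold change of −0.04 (SE 0.06, edgeR adjusted p 0.64). The lines differed by 0.34 (SE 0.20, edgeR adjusted p 0.26, or 0.0125 with the replicate block). HSPE1 counts are uncertain because 18.6% of its exon bases lie in HSPE1-MOB4, a readthrough gene on the same strand, and 16.4% lie opposite HSPD1. HSPE1-MOB4 took 50.1% of the sum of both genes in PC3 and 52.9% in VCaP. The sum gave a log2 fold change of −0.34 in PC3 (edgeR adjusted p 0.17) and −0.11 in VCaP (edgeR adjusted p 0.13). The opposite-strand overlap covers 6.58% of the HSPD1 exons and bears on PC3, whose counting ignored strand.

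**Figure D3:**
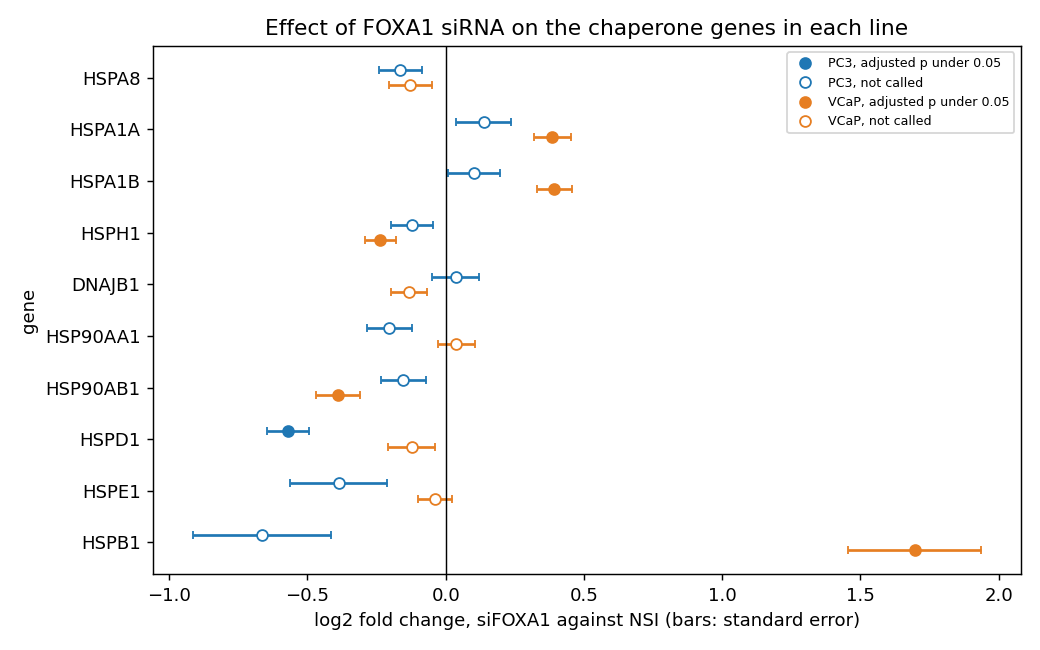
Log2 fold change of siFOXA1 against NSI for each of the 10 chaperones in PC3 and VCaP, with standard errors. Filled points have an adjusted p under 0.05 and open points do not. HSPB1 stands at −0.66 in PC3 and 1.70 in VCaP, and the other 9 genes lie between −0.57 and 0.39.

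Across the 10 chaperones, 2 differences of effect between the lines passed the test, HSPB1 and HSPD1, against 22.1% of the 30450 genes tested. The median difference, VCaP minus PC3, was 0.23, against 0.05 over all genes. The differences for HSPA1A (0.23, SE 0.12, edgeR adjusted p 0.21) and HSPA1B (0.28, SE 0.12, adjusted p 0.12) did not pass, so their rise in VCaP was not shown to differ from the PC3 values. Neither did those of HSPH1 (−0.13, SE 0.10, edgeR adjusted p 0.42) and DNAJB1 (−0.18, SE 0.11, adjusted p 0.29). By the cruder measure of groups that do not overlap, 5 of 10 chaperones were lower in PC3 and 0 higher, against 45.1% of all genes in either direction, 22.7% lower and 22.4% higher. In VCaP 3 were lower and 3 higher, against 55.9% of all genes in either direction, 28.0% lower and 27.9% higher. HSPA8, HSP90AB1 and HSPH1 were lower without overlap in both lines, and the share of all genes that were so in both was not counted.

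Of the heat shock factors, HSF1 fell in both lines and HSF2 rose in VCaP. Of the 3 listed, 0 were higher and 1 lower in PC3 (0 and 2 at an unadjusted p under 0.05, with DESeq2 and with the replicate block), with a median log2 fold change of −0.28. In VCaP 1 was higher and 1 lower, with a median of 0.13. HSF1, the main activator of these promoters, read 371, 415 and 413 CPM in the PC3 NSI libraries and 311, 320.1 and 292.5 CPM with siFOXA1. It fell by 0.38 on the log2 scale (SE 0.09, edgeR adjusted p 0.013). The call was lost without NSI replicate 3 (adjusted p 0.061), siFOXA1 replicate 1 (0.085) or siFOXA1 replicate 3 (0.060). In VCaP HSF1 read 35.4, 31.6 and 38.5 CPM with NSI and 24.1, 25.2 and 21.8 CPM with siFOXA1, and fell by 0.57 (SE 0.09, edgeR adjusted p 0.00056). HSF2, a related factor, gave values of opposite sign in the 2 lines. In VCaP it rose from 13.4 ± 0.606 to 17.1 ± 0.898 CPM (SD, n = 3), a log2 fold change of 0.35 (SE 0.07, edgeR adjusted p 0.0039). In PC3 it read 12.4, 14.0 and 12.1 CPM with NSI and 10.5, 10.9 and 10.2 CPM with siFOXA1, with a log2 fold change of −0.28 (SE 0.10, edgeR adjusted p 0.060, or 0.0143 with the replicate block). The difference between the lines was 0.61 (SE 0.12, edgeR adjusted p 0.0020). HSF4, the third factor listed, was called in neither line. In VCaP, HSF1 mRNA was lower in the same libraries in which HSPA1A and HSPA1B mRNA were higher.

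Around the 10 genes, 9 lists of their partners and relatives held 91 genes. In PC3, 86 were tested, of which 4 were higher and 31 lower. In VCaP, 84 were tested, of which 16 were higher and 31 lower. Background shares are those given above, for the settings named there. At an unadjusted p, all genes were counted in either direction only. The line difference with the replicate block was called for 8833 of 30450 genes, 4581 higher and 4252 lower. In VCaP, 12130 of 22939 genes had an unadjusted p under 0.05. DESeq2 called 9428 of 22932 genes there, 4938 of them lower.

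In the J-domain list, DNAJA1 changed in opposite directions in the 2 lines. DNAJA1, a main cytosolic partner of HSP70, read 134, 135 and 135 CPM in the PC3 NSI libraries and 196, 197 and 196.5 CPM with siFOXA1. In VCaP it read 228, 221 and 232 CPM with NSI and 156, 153 and 148 CPM with siFOXA1. It thus rose in PC3 (log2 fold change 0.55, SE 0.07, edgeR adjusted p 0.0012) and fell in VCaP (−0.58, SE 0.06, adjusted p 5.2e-05), a difference of −1.14 (adjusted p 1.1e-06). DNAJB4, a homologue of DNAJB1, rose in both, from 5.78 ± 0.661 to 15.7 ± 0.671 CPM in PC3 and from 5.46 ± 0.487 to 15.3 ± 1.26 CPM in VCaP. DNAJB6, which keeps polyglutamine proteins from aggregating, rose in VCaP from 26.4 ± 0.980 to 36.0 ± 1.93 CPM. DNAJC6, the clathrin-uncoating partner auxilin, fell in VCaP from 6.57 ± 0.810 to 3.87 ± 0.813 CPM. Of the 12 J-domain genes, 2 were higher and 2 lower in PC3 (4 and 4 with the replicate block, and also without replicate 2 of both groups), and 3 and 3 in VCaP, with medians of −0.11 and 0.03.

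**Figure D4:**
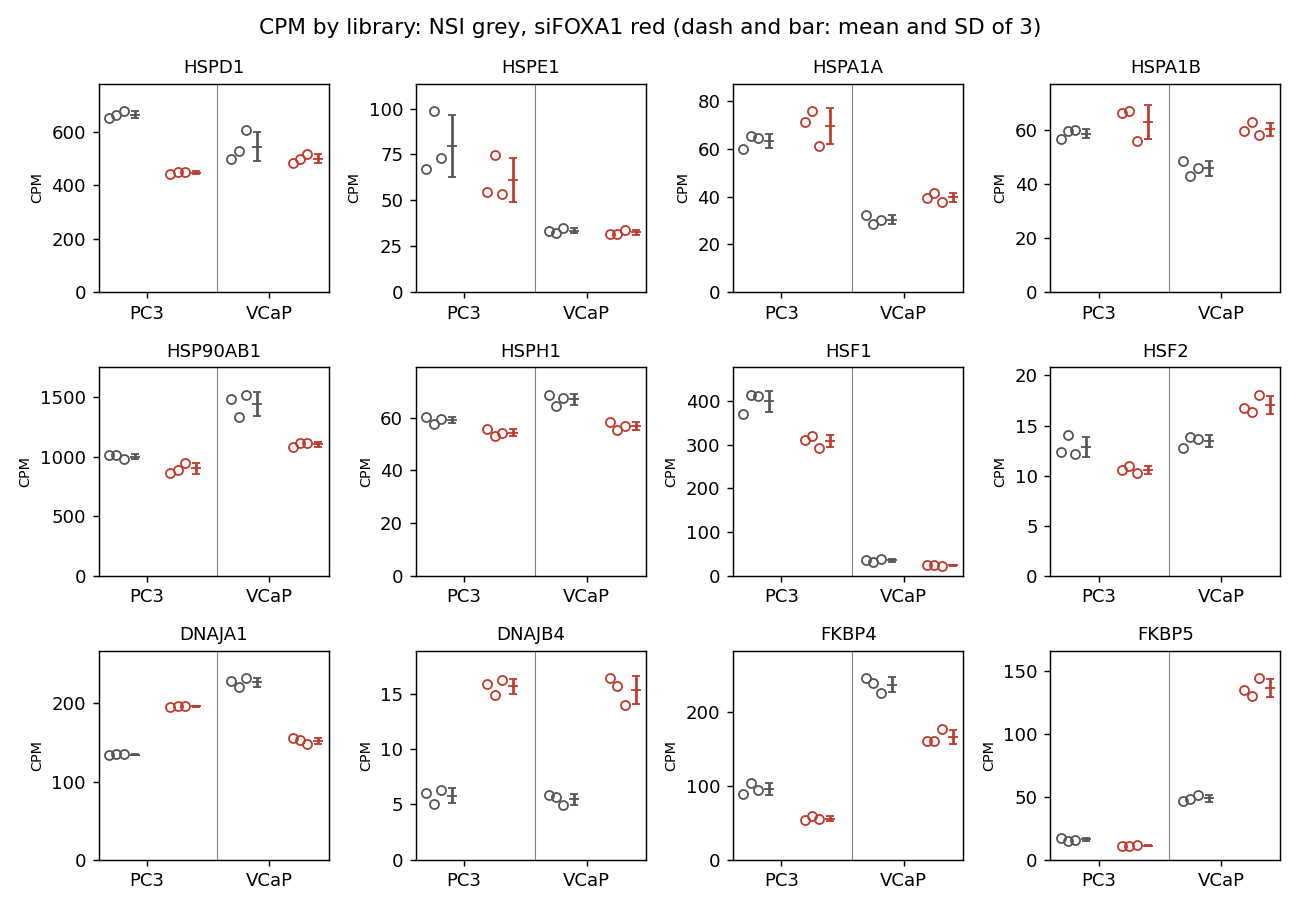
CPM of 12 genes in the 4 groups, each point 1 library, with the mean and SD of 3 libraries. HSPD1 is lower in PC3 siFOXA1, HSPA1A and HSPA1B are higher in VCaP siFOXA1, and DNAJA1 is higher in PC3 siFOXA1 and lower in VCaP siFOXA1.

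In the HSP90 co-chaperone list, more genes were lower than higher in each line. Of 15, 0 were higher and 4 lower in PC3 (0 and 10 with the replicate block), with a median log2 fold change of −0.20, and 1 was higher and 6 lower in VCaP, with a median of −0.13. At an unadjusted p under 0.05 the PC3 counts were 0 and 7, with DESeq2 0 and 4, and without replicate 2 of both groups 1 and 5. FKBP4, an immunophilin of steroid receptor complexes, fell from 96.0 ± 7.67 to 55.9 ± 3.47 CPM in PC3 and from 238 ± 9.79 to 167 ± 9.21 CPM in VCaP. PTGES3, the co-chaperone p23, fell from 308 ± 6.19 to 230 ± 12.4 CPM in PC3 and from 165 ± 8.51 to 98.0 ± 8.67 CPM in VCaP. FKBP5, the immunophilin that slows steroid receptors and is itself a steroid-induced gene, fell from 16.2 ± 1.16 to 11.1 ± 0.427 CPM in PC3 and rose from 48.7 ± 2.52 to 137 ± 7.16 CPM in VCaP. Its effects differed by 2.02 on the log2 scale (SE 0.12, edgeR adjusted p 2.2e-08).

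Among the HSP70 exchange factors and BAG proteins, 0 of 7 were higher and 2 lower in PC3 (0 and 4 with the replicate block), median −0.26, and 1 was higher and 2 lower in VCaP, median −0.14. The PC3 counts were 0 and 3 at an unadjusted p under 0.05, and 0 and 2 with DESeq2. BAG1, which releases clients from HSP70 near the proteasome, fell in PC3 from 48.8 ± 5.95 to 29.5 ± 4.23 CPM, a log2 fold change of −0.73 (SE 0.13, edgeR adjusted p 0.0043). In VCaP it went from 44.1 ± 2.05 to 42.9 ± 0.617 CPM (edgeR adjusted p 0.61), and the difference between the lines was 0.67 (edgeR adjusted p 0.0033). Of the other HSP70 and HSP110 genes, 0 of 9 were higher and 4 lower in PC3, median −0.09, and 2 of 8 higher and 2 lower in VCaP, median −0.03. In PC3, 1 of these 9 was higher at an unadjusted p under 0.05 and 0 were higher with DESeq2. Without replicate 2 of both groups, 1 was higher and 4 lower.

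Most chaperones that share the compartment of HSPD1 fell in PC3 as well. Of 10 mitochondrial chaperones and proteases, 9 were lower in PC3 and 0 higher, with a median log2 fold change of −0.40, and the counts were the same at an unadjusted p under 0.05 and with DESeq2. In VCaP 5 were lower and 1 higher, with a median of −0.25. HSPA9, the mitochondrial HSP70, chosen here after its values were seen because it feeds clients to HSPD1, read 712, 595 and 733.5 CPM in the PC3 NSI libraries and 477, 476 and 467 CPM with siFOXA1. It fell by 0.52 on the log2 scale (SE 0.10, edgeR adjusted p 0.0055), close to the value of HSPD1. In VCaP HSPA9 went from 886 ± 54.8 to 825 ± 14.7 CPM (log2 fold change −0.10, SE 0.07, edgeR adjusted p 0.29). The difference between the lines was 0.40 (SE 0.14, edgeR adjusted p 0.047).

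The cytosolic relative of HSPD1, the TRiC chaperonin, was lower in both lines. All 8 subunits were lower in PC3, with log2 fold changes from −0.55 to −0.31, and 7 of 8 in VCaP, from −0.48 to −0.15 over the 8. CCT6A, its subunit zeta, fell from 277 ± 2.50 to 189 ± 5.75 CPM in PC3 and from 279 ± 12.9 to 224 ± 4.63 CPM in VCaP. With prefoldin included, the list had 9 of 14 lower and 0 higher in each line, with medians of −0.38 and −0.32. With the replicate block 11 were lower in PC3 and 0 higher. At an unadjusted p under 0.05, 10 were lower in PC3 and 11 in VCaP and 0 higher, and DESeq2 called 10 and 9 lower and 0 higher.

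Small heat shock proteins other than HSPB1 were mostly too low to test. Of 9 listed, 4 were tested in PC3, of which 2 were higher and 0 lower (3 and 0 with the replicate block, and also without replicate 2 of both groups), and 3 in VCaP, of which 3 were higher and 0 lower, with median log2 fold changes of 0.73 and 1.56. No gene was lower at an unadjusted p under 0.05 or with DESeq2 in either line. One VCaP call was HSPB11 (log2 fold change 0.43, edgeR adjusted p 0.0011), which was also the call that the block added in PC3 (0.31, adjusted p 0.012). It was listed by its symbol, and whether it acts as a small heat shock protein was not examined. CRYAB and HSPB8, named after their values were seen, were higher in both lines. CRYAB, alpha-B crystallin, rose from 1.09 ± 0.126 to 2.82 ± 0.184 CPM in PC3 and from 0.118 ± 0.0568 to 1.42 ± 0.0224 CPM in VCaP, where the NSI libraries held 9, 3 and 7 counts. HSPB8, which works with BAG3 in clearing misfolded proteins, rose from 2.38 ± 0.549 to 5.23 ± 0.270 CPM in PC3 and from 2.19 ± 0.246 to 6.47 ± 0.340 CPM in VCaP. HSPB1 thus rose with these 2 in VCaP, and its PC3 value had the opposite sign to theirs.

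Chaperones of the endoplasmic reticulum answer to a separate stress pathway. Of 12, 0 were higher and 0 lower in PC3 (1 higher and 0 lower both at an unadjusted p under 0.05 and with DESeq2, 3 higher with the replicate block, 2 without replicate 2 of both groups), median 0.07. In VCaP 4 were higher and 3 lower, median 0.11. A test of the line difference passed for 3 of the 12, 1 with the higher value in VCaP and 2 with the lower (2 and 3 with the replicate block). Of the 7 called in VCaP, 4 did not pass this test without the block. DNAJB9, the J-domain protein ERdj4, rose in VCaP from 10.98 ± 0.588 to 32.5 ± 1.58 CPM, and its effects differed between the lines by 1.47 (SE 0.18, edgeR adjusted p 2.9e-05). PDIA4, a disulfide isomerase, fell in VCaP from 319 ± 11.6 to 71.4 ± 7.31 CPM and read 247 ± 4.37 and 248 ± 10.7 CPM in PC3, a difference of −2.18 (SE 0.13, edgeR adjusted p 1.8e-08). SERPINH1, the collagen chaperone, fell in VCaP from 13.6 ± 1.18 to 6.75 ± 0.627 CPM. In PC3 SERPINH1 had a log2 fold change of 0.24 (SE 0.08, edgeR adjusted p 0.053, or 0.0115 with the replicate block).

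**Figure D5:**
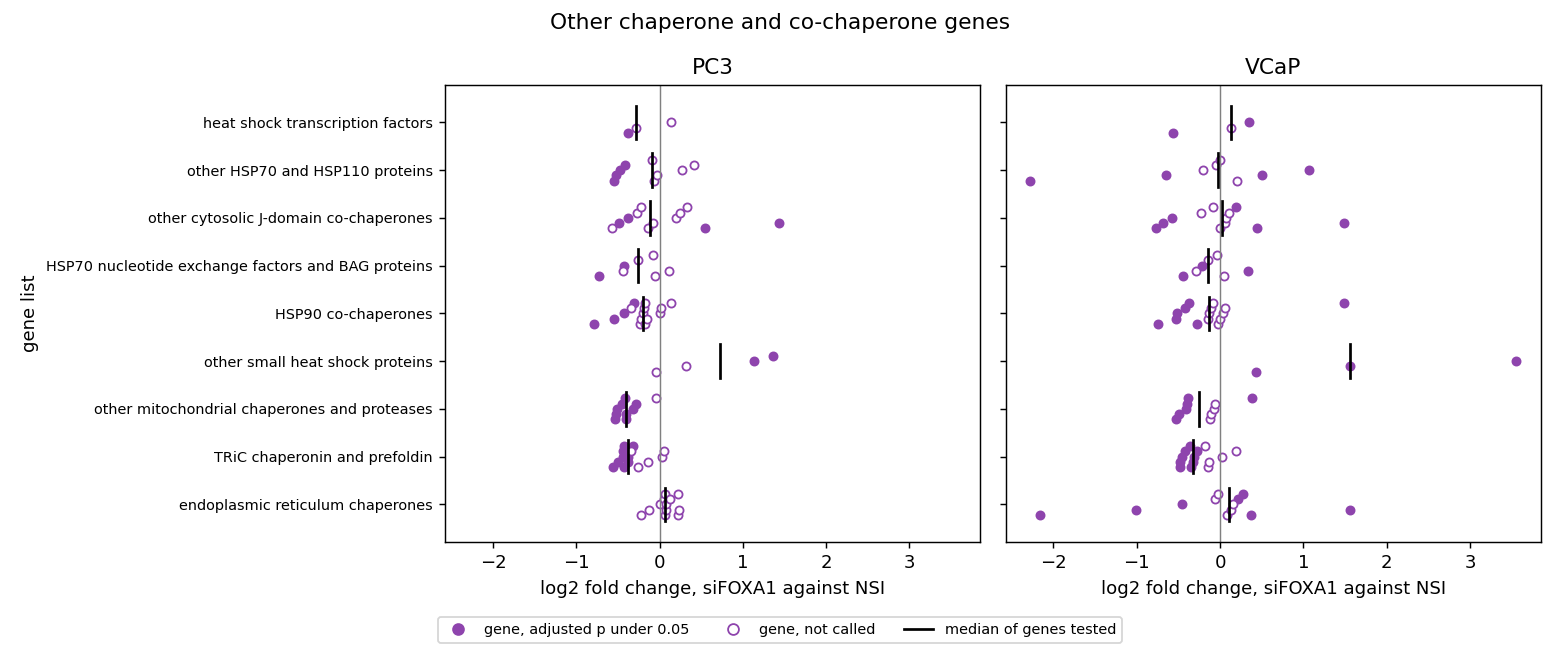
Log2 fold changes of siFOXA1 against NSI in 9 lists of chaperones, co-chaperones and heat shock factors, in PC3 and VCaP. Each point is a gene and each bar the median of its list. The mitochondrial list has medians of −0.40 and −0.25, and the TRiC and prefoldin list −0.38 and −0.32.

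Genes that followed the mean log2 level of the 10 chaperones most closely were sought over the 12 libraries and 9623 genes. Their log2 CPM, centred within each line, was correlated with the mean of the 10 centred in the same way. The highest Pearson correlations were those of GTPBP6 (0.98), C19orf25 (0.98), PTGES2 (0.98), RAB4B-EGLN2 (0.97) and PRPF19 (0.97). The libraries share the siRNA contrast and the PC3 replicate shift, so the values describe likeness in these libraries. This mean weighs each gene alike whatever its level, so HSPB1, with the largest log2 fold changes, moves it most. In VCaP the mean was 0.0002, −0.0855 and 0.0168 with NSI and 0.0119, 0.0346 and 0.0221 with siFOXA1, while the summed CPM was lower with siFOXA1. The part of HSPB1 in the ranking was not tested. In PC3 the mean was 0.020, 0.194 and 0.084 with NSI and −0.129, 0.008 and −0.178 with siFOXA1. Genes picked for following it are thus apt to be lower in PC3, and the p-values below take no account of that choice. They are a description and no separate support. Of the 5, GTPBP6 and RAB4B-EGLN2 were lower in PC3, with log2 fold changes of −0.55 and −0.62 (edgeR adjusted p 0.025 and 0.017). With the replicate block all 5 were called lower in PC3, the added genes at −0.40 (C19orf25, adjusted p 0.0013), −0.39 (PTGES2, 0.0013) and −0.25 (PRPF19, 0.0074). Without siFOXA1 replicate 1 or 3 neither GTPBP6 (edgeR adjusted p 0.13 and 0.088) nor RAB4B-EGLN2 (0.098 and 0.063) was called, and GTPBP6 was also lost without NSI replicate 2 (0.073) or 3 (0.067). In VCaP, RAB4B-EGLN2 had a log2 fold change of 0.18 (edgeR adjusted p 0.044), a call that held in 5 of 16 alternatives, with adjusted p from 0.013 to 0.23.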

How the data were processed

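RNA was sequenced from 6 PC3 and 6 VCaP libraries. The authors aligned reads with STAR 2.7.3a and counted them with featureCounts of Subread 2.0.0, per the submitters' processing notes and the file headers. The deposited values are estimated counts (expected counts) per gene of GENCODE v28lift37 on GRCh37. Per the file headers, both ends had to map, multi-mapping and overlapping fragments were divided, PC3 counting ignored strand and VCaP counting used the reverse strand. Between 54.8% and 75.2% of nonzero values were not whole. Totals are given in the report.

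Counts were rounded to whole numbers. Each line was fitted with edgeR 4.0.16 in R 4.3.3 (TMM factors, filterByExpr, quasi-likelihood test, two-sided, Benjamini-Hochberg adjustment over all genes tested, call at adjusted p under 0.05). The difference between the lines is the interaction term over all 12 libraries. CPM values use the TMM factors. The standard error is the log2 fold change divided by the square root of F. DESeq2 1.42.0 was an alternative. The scripts were tested on simulated data.

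The sample titles use replicate numbers 1 to 3 in every group. Deviations from group means correlated between same-numbered PC3 libraries by 0.41, 0.57 and 0.21. Against other numbers the means were −0.11, −0.40 and −0.03, so the numbers were taken to pair the PC3 libraries. In VCaP the correlations were 0.09, 0.04 and 0.35, against means of −0.02, 0.001 and −0.21 for other numbers. Replicate 3 of VCaP thus stood apart from other numbers as well, and more than replicate 3 of PC3. Replicates 1 and 2 of VCaP did so little, and the numbers were not taken to pair VCaP. The choice was made from these same data. A chi-square comparison of replicates gave 11.0 or more per degree of freedom, so no library repeated another.

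The 10 members and the lists were chosen with earlier results of these data known. Genes named from the lists were, in each line, up to 4 called genes with the largest rise and 4 with the largest fall, at a mean of at least 5 CPM and without overlap between the groups. The 5 most alike genes had at least 5 CPM in each line and excluded pseudogenes. Motifs were searched in the GRCh37 genome sequence. Other scalings, no filter, sums with near-identical copies, a replicate block and each library left out were tried as alternatives. Some of the line markers are not reported here.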

Additional observations from a re-analysis of the deposited data

Results flagged for a closer look

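Only the chaperones, FOXA1, HSF1, HSF2 and the genes named by rule are covered here. Over the 9 lists, 14 of 86 genes tested passed with a higher value in VCaP and 8 with a lower. List genes not named here thus passed as well. Among the genes covered, these differences between the effects of siFOXA1 in VCaP and in PC3 passed the quasi-likelihood test of the interaction. Among the chaperones they were HSPB1, with a difference of 2.36 on the log2 scale, and HSPD1, with 0.43. Among the heat shock factors it was HSF2, with 0.61. The J-domain genes gave −1.14 for DNAJA1, 0.51 for DNAJB6 and −1.11 for DNAJC6. BAG1 gave 0.67 and FKBP5 gave 2.02. In the endoplasmic reticulum the differences were 1.47 for DNAJB9, −2.18 for PDIA4 and −1.26 for SERPINH1. FOXA1, the siRNA target, fell more in VCaP, by −1.94. Of the genes most alike to the mean of the chaperones, GTPBP6 gave 0.61 and RAB4B-EGLN2 gave 0.78. Both were picked for that likeness over these same libraries, so their differences follow in part from the choice. The GTPBP6 difference passed in 16 of 22 alternatives and was lost without PC3 siFOXA1 replicate 1 or 3, VCaP NSI replicate 1 or 2, or VCaP siFOXA1 replicate 2 or 3, with edgeR adjusted p from 0.054 to 0.073. The HSPD1 losses are given in the report. The siRNA dose, the extent of the FOXA1 fall, the medium, the library kit, the depth and the strand setting differ between the lines as well. They cannot be told apart from the line in any of these differences.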

How the results depend on the processing

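In PC3 the number of chaperones called was 1, and 2 with DESeq2, 3 without the filter on low counts, 5 with the replicate block, 2 in a fit of all 12 libraries, and 3 without replicate 2 of both PC3 groups, an alternative added after seeing the data. Leaving out 1 library gave 1 to 3, the highest without siFOXA1 replicate 2, where 6693 of 27273 genes were called, 3546 of them lower. Without the filter 7858 of 48549 genes were called, 3977 of them lower. The fit of all 12 libraries called 9106 of 30450 genes in PC3, 4169 of them lower. All PC3 genes called numbered 7344, 11333 with the replicate block, and 3963 to 7628 with 1 library left out (4738 without NSI replicate 3, 3963 without siFOXA1 replicate 1). With library size alone as scaling, 64.3% of PC3 calls were higher (4607 higher, 2562 lower), against 50.04% with TMM (3675 and 3669). No scaling moved the median of all genes by over 0.1, but in PC3 it went from −0.014 with TMM to 0.076 with library size alone. Over 16 alternatives the small PC3 values moved too, from −0.18 to −0.07 for HSPA8 and −0.22 to −0.12 for HSP90AA1. HSP90AB1 ran from −0.19 to −0.06 and HSPH1 from −0.12 to −0.03. Overlap between groups and the replicate block were examined with TMM only.

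In VCaP 5 chaperones were called in every alternative except without NSI replicate 2, which added DNAJB1 for 6. All VCaP genes called ranged from 8750 to 9964 with 1 library left out, against 10500. They were 11474 with the replicate block, whose numbers were not taken to pair VCaP. For the difference between the lines, leaving out 1 library gave 5464 to 7235 genes and 1 or 2 chaperones. DESeq2, the replicate block and leaving out replicate 2 of both PC3 groups each gave 3 chaperones (2 otherwise). Over all genes these called 7391 of 29251, 8833 of 30450 and 7908 of 28741. Beside the calls named in the report, the replicate block changed no other chaperone call.

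Signs turned in values that no test called. In PC3 these were DNAJB1 (−0.0091 without siFOXA1 replicate 2, up to 0.112 with other libraries left out), DNAJB9 (−0.0443 without NSI replicate 2, −0.0433 without replicate 2 of both groups, up to 0.208 with other libraries left out) and DNAJB6 (0.0090 with library size alone). In VCaP they were HSPE1 (0.0104) and BAG1 (0.0108) with upper-quartile factors, and GTPBP6 (−0.0095) and PTGES2 (−0.0115) without NSI replicate 2, up to 0.148 and 0.116 with other libraries left out. PRPF19 turned with upper-quartile factors (0.0465), in the fit of all 12 libraries (0.0242), without NSI replicate 1 (0.0020) or 3 (0.0154), without siFOXA1 replicate 1 (0.0135) and without replicate 3 of both VCaP groups (0.0059), and was lowest without NSI replicate 2 (−0.0518). The difference between the lines turned for HSPA8 with DESeq2 size factors (−0.0108), the DESeq2 test (−0.0108), library size alone (−0.0677), without PC3 NSI replicate 1 (−0.0270), 2 (−0.0007) or 3 (−0.0550), without PC3 siFOXA1 replicate 1 (−0.0277) or 2 (−0.0689), without VCaP NSI replicate 2 (−0.0293) and without replicate 2 of both PC3 groups (−0.0421), and was highest without VCaP NSI replicate 3 (0.0573). It turned for DNAJB4 with library size alone (−0.0508), without PC3 NSI replicate 1 (−0.0344) or 3 (−0.0884), PC3 siFOXA1 replicate 2 (−0.0764), VCaP NSI replicate 3 (−0.0282) and VCaP siFOXA1 replicate 1 (−0.0129), and was highest without VCaP siFOXA1 replicate 3 (0.102). The cause was not tested in any of these. Depth limits HSPB1 in VCaP, and division of shared fragments limits HSPA1A, HSPA1B and HSPE1.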

Other observations

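HSPA6, an HSP70 gene known for being nearly silent without stress, was the one listed HSP70 gene too low to test in VCaP, and is named here after its values were seen. In PC3 it read 12.0, 13.0 and 12.1 CPM with NSI and 11.5, 12.3 and 11.1 CPM with siFOXA1, with a log2 fold change of −0.09 (edgeR adjusted p 0.51). In VCaP it read 0.0963, 0.0996 and 0.626 CPM with NSI and 0.159, 0.139 and 1.66 CPM with siFOXA1, so that replicate 3 stood apart in both groups. The counts behind these were 4.83, 4.5 and 35.5 in NSI and 8.12, 7 and 86.79 in siFOXA1. HSPA1A and HSPA1B were not the highest of their groups in VCaP replicate 3, and the 5 VCaP calls were the same without replicate 3 of both groups.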
